A study of Homo sapiens with 7 samples.

Results

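The keratins of stratified squamous epithelium were examined by RNA-Seq in TE5 and KYSE140 cells, established human esophageal squamous cell carcinoma (ESCC) lines. The set holds 10 genes, out of 56236 genes summed from the transcripts in every library. They were chosen by name for their role, with earlier results of these data known. They are the basal keratins KRT5, KRT14 and KRT15, the wound keratins KRT6A, KRT6B, KRT16 and KRT17, and the suprabasal keratins KRT4, KRT13 and KRT78. Every library came from cells carrying a lentiviral short hairpin RNA (shRNA). TE5 cells received a non-targeting scramble shRNA or an shRNA against TP63, SOX2 or CCAT1 (4 libraries), and KYSE140 cells received the scramble shRNA or those against TP63 and SOX2 (3 libraries), so that each line and shRNA had 1 library. TP63 and SOX2 are transcription factors that mark squamous cancers, and CCAT1 is a long noncoding RNA. The comparisons address how keratin transcripts stood after each gene was silenced. Each target was silenced in 1 library of a line, so an effect of the hairpin and an effect of its target cannot be told apart.

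Keratins form the intermediate filaments of epithelial cells. An acidic type I keratin (here KRT13, KRT14, KRT15, KRT16 and KRT17) pairs with a basic type II keratin (here KRT4, KRT5, KRT6A, KRT6B and KRT78), and the pairs differ between the layers of the epithelium. KRT5 and KRT14 are the classical pair of dividing basal cells, where KRT15 is a further type I partner. KRT6A and KRT6B with KRT16 and KRT17 are known as wound or stress keratins, since regenerating and hyperproliferative epithelium makes them. KRT4 and KRT13 are the pair of the suprabasal layers of the esophagus and other moist mucosae, and KRT78 is a type II keratin of stratified epithelia.

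The genes lie in the type II keratin cluster of chromosome 12 and the type I cluster of chromosome 17, all on the minus strand in hg19. On chromosome 12 they were KRT6B (chr12:52840435-52845930), KRT6A (chr12:52880960-52887041), KRT5 (chr12:52908359-52914314), KRT4 (chr12:53200333-53207900) and KRT78 (chr12:53231588-53242876). On chromosome 17 they were KRT13 (chr17:39657233-39661957), KRT15 (chr17:39669997-39678781), KRT14 (chr17:39738531-39743147), KRT16 (chr17:39766030-39772151) and KRT17 (chr17:39775694-39781094). Several are near copies of each other, which bears on how reads can be assigned to them. The coding sequences of KRT6A and KRT6B were equal at 1650 of 1692 bases (97.52%). The 100 bases of a coding exon in which they differed most, in exon 2, held 10 differing positions, shown here in capitals to make visible how little separates the genes even there (KRT6A, chr12:52885316-52885415; KRT6B, chr12:52844200-52844299).

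KRT6A: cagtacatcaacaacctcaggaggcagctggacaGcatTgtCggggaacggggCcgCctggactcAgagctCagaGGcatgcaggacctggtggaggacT
KRT6B: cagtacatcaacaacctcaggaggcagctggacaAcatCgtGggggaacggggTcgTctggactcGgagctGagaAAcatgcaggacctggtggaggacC

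In contrast, KRT14, KRT16 and KRT17 were most alike over 100 bases of exon 6, where capitals mark the 8 positions that were not the same in all of them (KRT14, chr17:39739500-39739599; KRT16, chr17:39766596-39766695; KRT17, chr17:39776924-39777023). A read from this stretch may carry few of the bases that tell these genes apart.

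KRT14: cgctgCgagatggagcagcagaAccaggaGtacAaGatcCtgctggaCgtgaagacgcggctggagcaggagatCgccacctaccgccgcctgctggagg
KRT16: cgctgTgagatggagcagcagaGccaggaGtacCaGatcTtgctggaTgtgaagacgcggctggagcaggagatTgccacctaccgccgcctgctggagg
KRT17: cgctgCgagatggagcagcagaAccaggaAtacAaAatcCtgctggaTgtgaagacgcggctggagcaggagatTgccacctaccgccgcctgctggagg

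The share of 31-base words that also occurs in another gene was used to describe this uncertainty. It was taken from the most abundant transcript found in GENCODE 44, which for KRT4 was not its most abundant transcript. It was 57.8% for KRT6B, 52.7% for KRT6A, 46.8% for KRT14, 39.8% for KRT17 and 39.1% for KRT16. KRT6A shared 45.8% of its words with KRT6C and 40.5% with KRT6B, and KRT14 shared 18.2% with KRT16 and 5.23% with KRT17. The share was 21.9% for KRT13, of which most (18.6% of its words) lay in an antisense long noncoding RNA at its 3′ end that was listed at 0 counts in all 7 libraries. KRT5 (8.15%), KRT15 (3.85%), KRT4 (1.89%) and KRT78 (0.62%) were largely their own. Values of KRT6B, KRT14 and KRT16 in TE5 cells are uncertain for this reason, as these genes had 160 counts or fewer there. KRT6B stood beside the abundant near copy KRT6A. KRT14 and KRT16 shared 5.23% and 3.87% of their words with the abundant KRT17, and larger shares with each other and with several KRT16 pseudogenes. Pseudogenes of KRT16 held between 9.07% and 43.8% as many counts as KRT16 itself in TE5 libraries, against at most 2.13% in KYSE140 libraries.

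Estimated counts summed to between 68532611 and 98036494 per library. TP63 had a TPM (a share of all transcripts, corrected for length and scaled to a fixed total) of 127 in scramble and 33.6 in shTP63 TE5 cells, and 194 and 49.0 in KYSE140 cells. SOX2 stood at 89.6 TPM in scramble and 34.9 in shSOX2 TE5 cells, but at 191 and 130 in KYSE140 cells, so that 1 silenced library kept much of its target. TP63 was not lower in the shSOX2 libraries (141 TPM in TE5, 227 in KYSE140). SOX2 in the shTP63 libraries stood at 67.0 TPM in TE5, below scramble, and at 203 TPM in KYSE140 cells. The transcripts of CCAT1 were not matched to the annotation, and its silencing was not analysed here. All 6 epithelial markers were above 10 TPM in both scramble libraries, with a summed level from 805 to 1164 TPM over the 7 libraries. The 6 fibroblast markers summed to between 13.5 and 44.9 TPM, mostly COL1A1. The 3 endothelial markers found summed to between 0.70 and 9.31 TPM, with KDR at or near 0. Of these, CDH5 had 1.70 TPM in scramble, 8.36 in shTP63, 3.88 in shSOX2 and 2.11 in shCCAT1 TE5 cells. In KYSE140 cells CDH5 was at 0.014 TPM or less. The 6 blood markers summed to between 49.5 and 118 TPM in TE5 and 4.33 and 16.1 TPM in KYSE140 cells, of which CD68 was the largest and PTPRC stayed at or under 0.236 TPM; the part of these transcripts in the keratin values was not tested. The TE5 scramble library came from another flow cell than the rest, and the KYSE140 scramble library from another lane than the silenced ones, whereas the shTP63 and shSOX2 libraries of a line shared a lane. Silencing and lane cannot be told apart in a comparison with scramble.

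The keratin make-up of the 2 lines differed in scale and in kind. In KYSE140 cells the 10 genes summed to 19987 TPM in the scramble, 12548 in the shTP63 and 31427 in the shSOX2 library, which was 2.00%, 1.25% and 3.14% of all transcripts. They made up between 83.9% and 94.2% of the transcripts of 55 keratin genes there. In TE5 cells they summed to 1630 TPM in scramble, 1537 in shTP63, 1503 in shSOX2 and 885 in shCCAT1, which was between 26.4% and 37.1% of keratin transcripts. The simple keratins KRT7, KRT8, KRT18, KRT19 and KRT20, which single-layered epithelia use, were the larger part in TE5 cells, with 2317 to 3474 TPM. Their level was of the same order in KYSE140 cells, with 1862 to 2322 TPM.

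**Figure D1:**
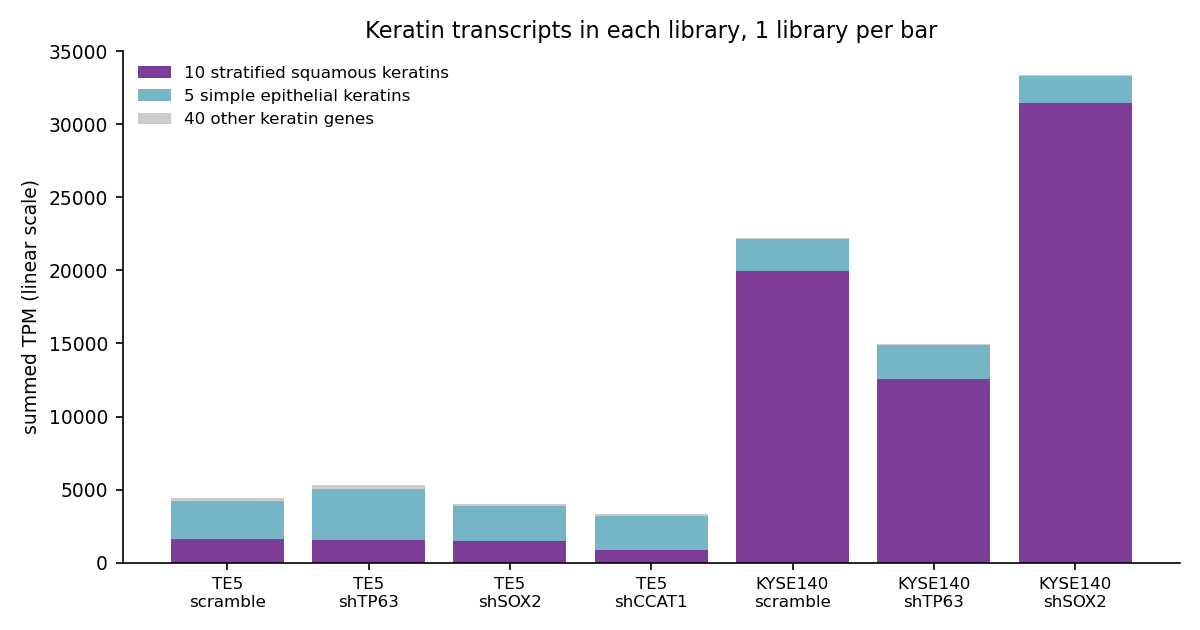
Summed TPM (linear axis) of the 10 stratified squamous keratins, the 5 simple keratins and all other keratin genes in each of the 7 libraries, with 1 library per bar and no error bar. The stratified keratins summed to 12548 TPM or more in each KYSE140 library and to 1630 TPM or less in each TE5 library, while the simple keratins stayed between 1862 and 3474 TPM in all of them.

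Ordered by median TPM over libraries, the levels in TE5 cells ran KRT17, KRT5, KRT6A, KRT15, KRT13, KRT16, KRT78, KRT14, KRT4 and KRT6B. The ranges of neighbours among the first 5 overlapped, as did those of KRT78, KRT14 and KRT4, so their order was not fixed by the 4 libraries. A gap without overlap separated KRT13, at 33.5 TPM or more, from KRT16, at 1.83 TPM or less. In KYSE140 cells the order was KRT5, KRT17, KRT6A, KRT15, KRT14, KRT16, KRT13, KRT6B, KRT4 and KRT78. There KRT5 and KRT17 overlapped, as did KRT15, KRT14, KRT16 and KRT13 in turn, and KRT6A lay apart from both its neighbours. Each library had 1 shRNA, so these ranges hold the effects of silencing as well as the spread between samples. KRT5 in KYSE140 cells was above at least 99.96% of the genes detected in each library, whereas KRT14 in TE5 cells was above at most 37.3% of them.

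**Figure D2:**
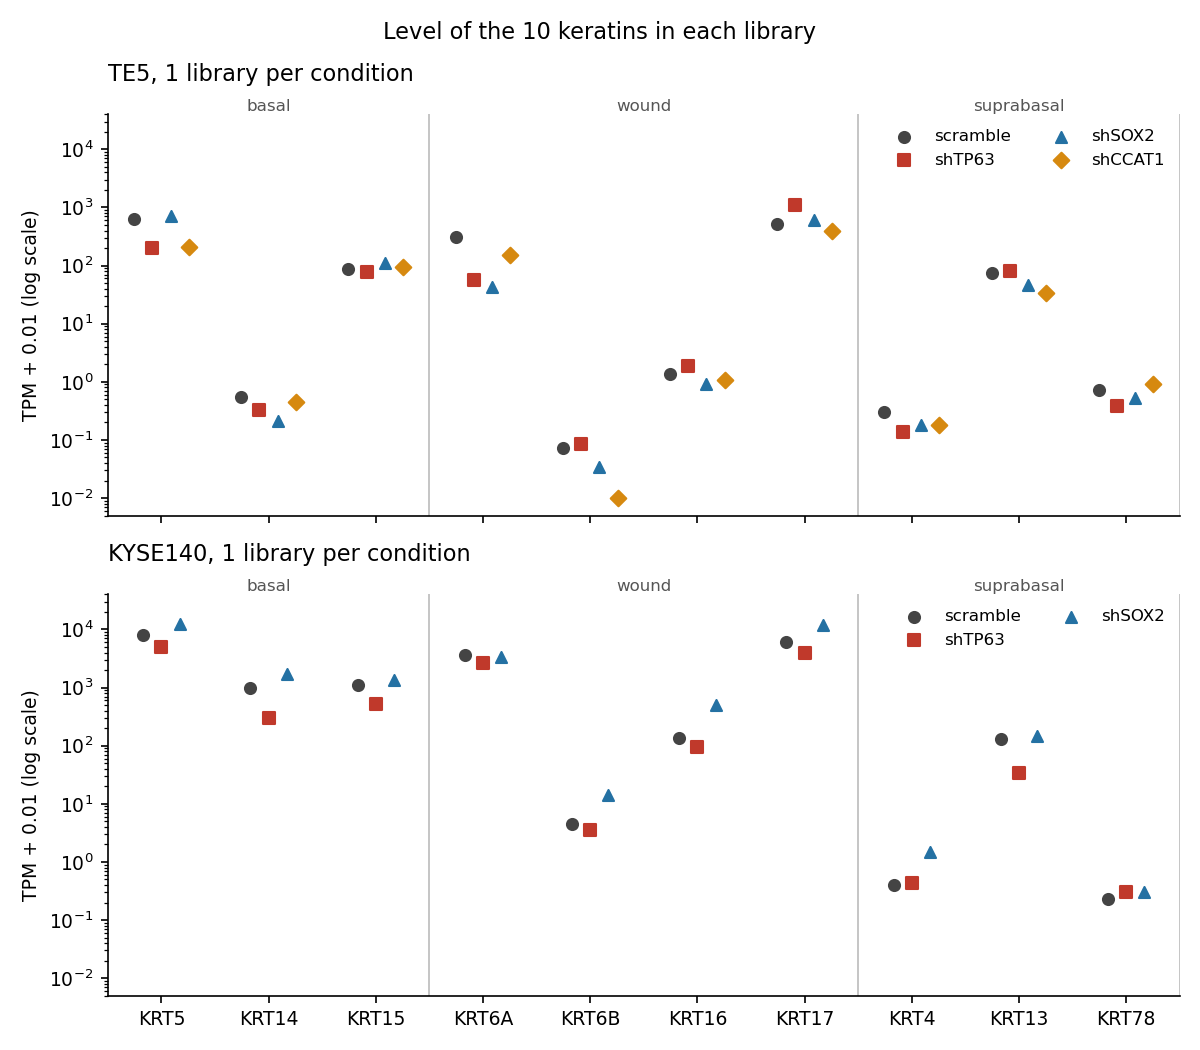
TPM of each keratin, plotted as TPM + 0.01 on a log axis, in TE5 (top) and KYSE140 cells (bottom), with 1 point per library and colors and symbols for the shRNA. KRT14 and KRT16 lay below 2 TPM in all TE5 libraries and between 95.8 and 1689 TPM in KYSE140 libraries, while the ranges of KRT13 overlapped between the lines.

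Among the basal keratins, KRT5 had 7984 TPM in scramble, 4916 in shTP63 and 12251 in shSOX2 KYSE140 cells. In TE5 cells it had 621 TPM in scramble, 201 in shTP63, 702 in shSOX2 and 211 in shCCAT1. It was the lowest with TP63 shRNA and the highest with SOX2 shRNA in both lines. The log2 fold change of normalized counts against scramble, with a 95% interval for counting error only, was -1.80 (-1.82 to -1.78) for shTP63 in TE5 and -0.70 (-0.71 to -0.70) in KYSE140. For shSOX2 it was 0.22 (0.20 to 0.23) and 0.77 (0.77 to 0.78), and for shCCAT1 in TE5 -1.48 (-1.50 to -1.46). Intervals this narrow reflect the depth of 26407 or more counts per library and say nothing about the spread between cultures, for which there was no replicate.

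KRT14, the type I partner of KRT5, had 970 TPM in scramble, 304 in shTP63 and 1689 in shSOX2 KYSE140 cells. The TE5 libraries held 0.546 TPM in scramble, 0.314 in shTP63, 0.202 in shSOX2 and 0.444 in shCCAT1, from 28, 31, 7 and 30 counts. KRT14 thus had 31 counts or fewer in TE5 cells, where KRT5 had 26407 or more. In KYSE140 cells its log2 fold change was -1.69 (-1.72 to -1.67) for shTP63 and 0.99 (0.98 to 1.00) for shSOX2. In TE5 cells the values were -0.27 (-1.06 to 0.52) for shTP63, -1.87 (-3.45 to -0.78) for shSOX2 and -0.28 (-1.08 to 0.50) for shCCAT1, and only the second had an interval that left out 0. KRT15 had 1085 TPM in scramble, 526 in shTP63 and 1346 in shSOX2 KYSE140 cells. In TE5 cells KRT15 stayed within 77.7 and 109 TPM, with 88.3 in scramble, 77.7 in shTP63, 109 in shSOX2 and 95.8 in shCCAT1. Its log2 fold change for shTP63 was -1.15 (-1.16 to -1.13) in KYSE140 and -0.34 (-0.38 to -0.29) in TE5 cells, where the most abundant transcript alone gave -1.01. For shSOX2 it was 0.45 and 0.16, though that transcript gave -0.23 in TE5. For shCCAT1 the value was -0.10, which turned to 0.07 when libraries were scaled by their total count only.

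Of the wound keratins, KRT6A had 3563 TPM in scramble, 2675 in shTP63 and 3421 in shSOX2 KYSE140 cells. It had 315 TPM in scramble, 55.6 in shTP63, 42.0 in shSOX2 and 155 in shCCAT1 TE5 cells. All 3 silenced TE5 libraries were below scramble, and the difference was as large with SOX2 shRNA as with TP63 shRNA. The log2 fold change in TE5 was -2.65 (-2.69 to -2.62) for shTP63, -2.88 (-2.93 to -2.84) for shSOX2 and -1.12 (-1.14 to -1.09) for shCCAT1. Against all genes tested, the first was at the 0.45th percentile and the second at the 0.47th. In KYSE140 cells the changes were small, -0.45 (-0.46 to -0.45) for shTP63 and 0.11 (0.10 to 0.12) for shSOX2, and the latter turned to -0.06 on the TPM scale. The near copy KRT6C held at most 0.65% as many counts as KRT6A in any library.

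KRT6B, in spite of its likeness to KRT6A, had 4.48 TPM in scramble, 3.47 in shTP63 and 14.4 in shSOX2 KYSE140 cells. In TE5 cells it had between 0 and 10.5 counts per library, and 0 counts in the shCCAT1 library, which allows up to 3 counts. A fold of KRT6B in TE5 cells rests on these few counts. Its log2 fold change in KYSE140 was -0.40 (-0.58 to -0.21) for shTP63 and 1.86 (1.71 to 2.02) for shSOX2. The 2 copies of the gene thus stood at different estimated levels, and KRT6B had the larger value upon SOX2 silencing. KRT6B had 1814.5 counts or fewer in each KYSE140 library, where KRT6A had 357140 or more. The part of KRT6A reads in these KRT6B values was not tested.

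KRT16 had 135 TPM in scramble, 95.8 in shTP63 and 502 in shSOX2 KYSE140 cells. In TE5 cells it stayed at 1.34 TPM in scramble, 1.83 in shTP63, 0.893 in shSOX2 and 1.06 in shCCAT1. Its 2.09 (2.06 to 2.12) upon SOX2 silencing in KYSE140 cells was at the 98.2nd percentile of log2 fold changes, and the value for shTP63 was -0.52 (-0.56 to -0.48). None of the TE5 intervals of KRT16 against scramble left out 0. Between silenced TE5 libraries, KRT16 was at 0.70 (0.30 to 1.12) for shTP63 against shSOX2. It was at -0.61 (-0.99 to -0.25) for shCCAT1 against shTP63 and 0.09 (-0.36 to 0.54) for shCCAT1 against shSOX2. KRT17 had 6113 TPM in scramble, 3995 in shTP63 and 12054 in shSOX2 KYSE140 cells, against 529 in scramble, 1121 in shTP63, 602 in shSOX2 and 388 in shCCAT1 TE5 cells. It was therefore the highest of its line upon TP63 silencing in TE5 and the lowest in KYSE140. The log2 fold change for shTP63 was 0.95 (0.94 to 0.97) in TE5 and -0.64 (-0.65 to -0.64) in KYSE140 cells. For shSOX2 it was 0.19 (0.17 to 0.21) and 1.15 (1.15 to 1.16), and for shCCAT1 in TE5 -0.53 (-0.55 to -0.51).

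The suprabasal pair was unequal: KRT13 was at 33.4 TPM or more and KRT4 at 1.47 TPM or less in every library. KRT13 had 131 TPM in scramble, 33.4 in shTP63 and 148 in shSOX2 KYSE140 cells. In TE5 cells it had 74.3 TPM in scramble, 79.1 in shTP63, 47.0 in shSOX2 and 33.5 in shCCAT1. The log2 fold change for shTP63 was -2.10 (-2.16 to -2.04) in KYSE140 cells, the lowest of the 10 keratins there. In TE5 cells it was -0.11 (-0.16 to -0.06), and 0.09 on the TPM scale. For shSOX2 it was 0.34 (0.30 to 0.38) in KYSE140 and -0.70 (-0.77 to -0.64) in TE5 cells, and for shCCAT1 -1.34 (-1.40 to -1.27).

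KRT4 had 21, 59 and 180 counts in the scramble, shTP63 and shSOX2 libraries of KYSE140 cells, which was 0.386, 0.429 and 1.47 TPM. In TE5 cells it had 36 counts in scramble, 16 in shTP63, 19 in shSOX2 and 21 in shCCAT1. The log2 fold change of 2.90 (2.29 to 3.67) for shSOX2 in KYSE140 cells was the highest value of any member in a comparison with scramble. In TE5 cells KRT4 was at -1.52 (-2.54 to -0.71) for shTP63, -0.90 (-1.82 to -0.10) for shSOX2 and -1.12 (-2.02 to -0.35) for shCCAT1, but its most abundant transcript alone gave 2.02 for shSOX2 and 2.15 for shCCAT1. KRT78 had between 13 and 83 counts and between 0.221 and 0.890 TPM in the 7 libraries. Its interval left out 0 in 1 of the 5 comparisons with scramble, at 1.10 (0.17 to 2.19) for shSOX2 in KYSE140 cells.

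Counted over the set, 3 of 10 keratins were past a log2 fold change of 1 in either direction upon TP63 silencing in TE5 cells (KRT5, KRT6A and KRT4, all lower), where 20.1% of all genes tested were. On the TPM scale KRT4 was at -0.81, and KRT17 was past the limit as higher, at 1.08. In KYSE140 cells 3 of 10 were also past the limit upon TP63 silencing (KRT14, KRT15 and KRT13, all lower), against 12.9% of all genes. No member was past that limit in both lines upon TP63 silencing, but the most abundant transcript of KRT15 was, at -1.01 in TE5 and also below -1 in KYSE140 cells. SOX2 silencing gave 2 of the 9 tested in TE5 cells (KRT14 and KRT6A, lower; 1 with a minimum of 50 counts), against 11.0% of all genes, and 5 of 10 in KYSE140 cells (KRT6B, KRT16, KRT17, KRT4 and KRT78, higher), against 13.0%. On the TPM scale 3 of these were left, with KRT17 at 0.98 and KRT78 at 0.29. The median over the set was -0.30 for shTP63 and -0.55 for shSOX2 in TE5, and -0.58 and 1.04 in KYSE140 cells, where medians over all genes lay between -0.01 and 0.06. CCAT1 silencing in TE5 cells gave 4 of 9 (KRT5, KRT6A, KRT4 and KRT13, lower), against 17.6% of all genes, and a median of -0.53. Scaling by the total count only left 2, with KRT6A at -0.94 and KRT4 at -0.96. These comparisons share 1 scramble library per line.

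**Figure D3:**
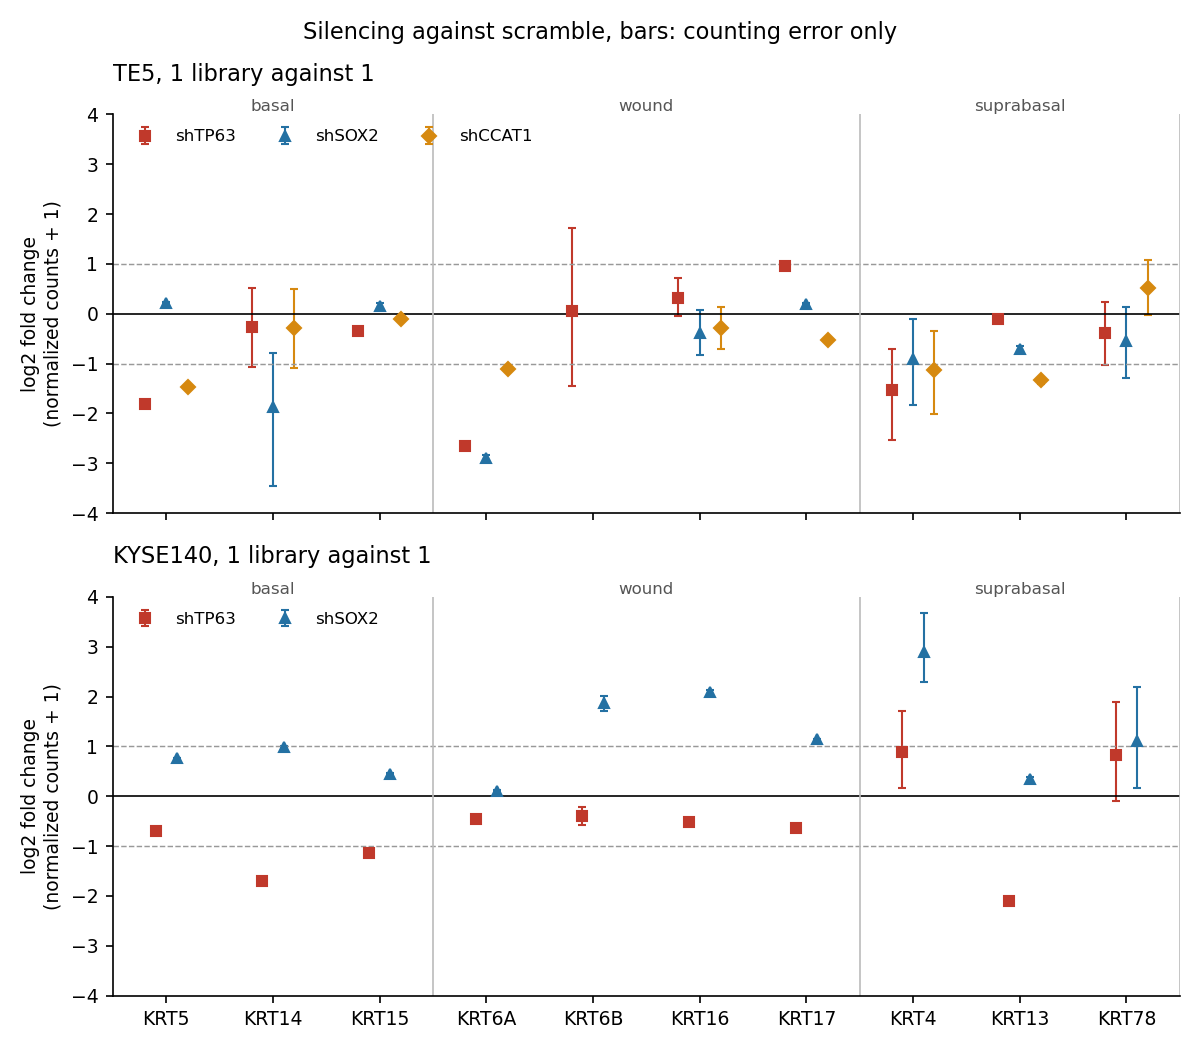
Log2 fold change of each keratin against scramble on normalized counts + 1, in TE5 (top) and KYSE140 cells (bottom), 1 library against 1, with bars for the 95% interval of counting error and dashed lines at -1 and 1. In KYSE140 cells the shSOX2 points of all 10 genes lay above 0 (KRT6A turned to -0.06 on the TPM scale) and 8 of the 10 shTP63 points below it, while in TE5 cells KRT6A was at -2.65 and -2.88 for the same shRNAs.

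A test was possible only over both lines, with the lines as replicates and cell line as a block (6 libraries, 2 residual degrees of freedom). Upon TP63 silencing KRT5 alone passed the adjusted p of 0.1 among the 10 keratins, where 1.23% of 23503 genes did. It fell by 1.24 on the log2 scale (SE 0.24, edgeR adjusted p = 0.0953), lower in both lines. This call stood at the edge of the threshold. It was lost with DESeq2 (adjusted p = 0.724), when transcripts without a gene were kept in the edgeR fit (adjusted p = 0.176, with 0 genes called), without the TE5 scramble library (0.851) and without the KYSE140 scramble library (0.382). DESeq2 called KRT15 instead (adjusted p = 0.0933), which had a log2 fold change of -0.70 (SE 0.26, edgeR adjusted p = 0.273). KRT6A at -1.78 (SE 0.61, edgeR adjusted p = 0.247) and KRT14 at -1.33 (SE 0.70, adjusted p = 0.435) did not pass. Of the 10, 3 had an unadjusted p under 0.05, and 5 were called without the KYSE140 shSOX2 library or without the TE5 shTP63 library. The targeted gene itself, TP63, fell by 1.94 (SE 0.14, edgeR adjusted p = 0.0306).

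Upon SOX2 silencing 0 of the 10 keratins passed in edgeR, where 0.162% of genes did, and 0 in DESeq2, with 1 at an unadjusted p under 0.05. Without the shTP63 library of either line, 5 were called. The gene under 0.05 was KRT6A at -1.53 (SE 0.62, edgeR adjusted p = 0.525). KRT6B at 1.32 (SE 0.60) and KRT16 at 1.3 (SE 0.64) had the highest values. SOX2 itself did not pass the test (edgeR adjusted p = 0.292), and the 2 lines differed in how much of it was left.

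The shTP63 and shSOX2 libraries of a line came from the same lane, and comparing them leaves out the scramble libraries. In KYSE140 cells all 10 keratins were lower with TP63 than with SOX2 shRNA, though KRT78 was at 0.01 on the TPM scale, and 8 of the 10 were past a log2 fold change of -1, against 16.9% of genes past 1 in either direction. The lowest were KRT14 at -2.68 (-2.70 to -2.66), KRT16 at -2.61 (-2.64 to -2.58) and KRT13 at -2.44 (-2.50 to -2.38), and the median was -1.90. In TE5 cells 3 of 10 were past the limit, against 20.3% of genes. These were KRT5 at -2.02 (-2.04 to -2.0), KRT14 at 1.61 (0.53 to 3.17) and KRT6B at 1.22 (-0.63 to 3.83), of which KRT14 had 31 and 7 counts and KRT6B 10.5 and 2.8. With a minimum of 50 counts, a pseudocount of 10 or TPM values, KRT5 was the 1 left. KRT15 was at -0.50 in TE5 and -1.60 in KYSE140 cells, KRT6A at 0.23 and -0.56, KRT17 at 0.76 and -1.80 and KRT13 at 0.59 and -2.44. KRT5 and KRT15 were thus the abundant members that were lower in both lines, and KRT6A, KRT17 and KRT13 had opposite signs. In TE5 cells 7 of the 10 keratins were above 0, with a median of 0.41.

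In the fit over both lines KRT5 was again the member that passed, where 4.91% of genes did. It was 1.69 lower on the log2 scale (log2 fold change -1.69, SE 0.24, edgeR adjusted p = 0.0294) with TP63 than with SOX2 shRNA. The call held at an adjusted p of 0.0646 with the transcripts without a gene kept in the fit, and was lost without the KYSE140 scramble library (0.106) and with DESeq2 (0.573). KRT15 was at -0.999 (SE 0.26, edgeR adjusted p = 0.105; DESeq2 adjusted p = 0.00597). Without the TE5 shTP63 or the TE5 shSOX2 library, when KYSE140 cells gave the only full pair, 7 of the 10 were called. With all 6 libraries, the 8 keratins beside KRT5 and KRT15 had SEs of 0.53 to 0.81 and adjusted p-values of 0.234 or more. The median over the set was -1.17, against 0.04 over all genes.

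**Figure D4:**
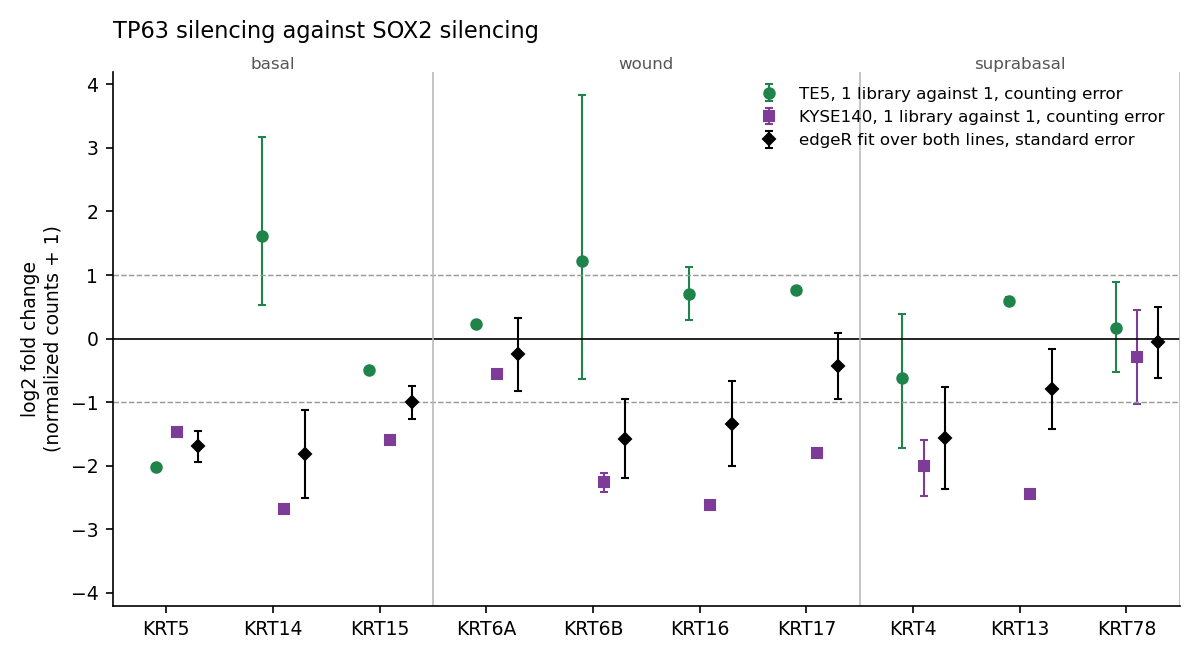
Log2 fold change of TP63 against SOX2 silencing for each keratin, within TE5 and within KYSE140 cells (1 library against 1, bars for the 95% interval of counting error, on normalized counts + 1) and in the edgeR fit over both lines (bars for the standard error), with dashed lines at -1 and 1. KRT5 lay at -2.02 and -1.48 in the 2 lines, whereas KRT17 lay at 0.76 and -1.80.

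CCAT1 shRNA was used in TE5 cells only, and its library shared the lane of the other silenced TE5 libraries. Against shTP63, 4 of 10 keratins were past a log2 fold change of 1, where 24.2% of genes were. KRT6A was higher at 1.54 (1.5 to 1.57), and KRT17 at -1.48 (-1.50 to -1.46) and KRT13 at -1.23 (-1.29 to -1.16) were lower. The fourth was KRT6B, with 0 against 10.5 counts. KRT5 differed by only 0.32 (0.30 to 0.35) between these libraries. Against shSOX2, 4 of 9 were past the limit, where 20.0% of genes were: KRT5 at -1.69 (-1.71 to -1.67), KRT6A at 1.77 (1.72 to 1.81), KRT14 at 1.59 (0.50 to 3.15) and KRT78 at 1.07 (0.47 to 1.74). KRT14 and KRT78 were under 1 with a pseudocount of 10 or on the TPM scale, which left 2 past the limit, and KRT14 rests on 30 and 7 counts. In TE5 cells KRT5 was therefore low with TP63 and CCAT1 shRNA, and KRT6A was lowest with TP63 and SOX2 shRNA.

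Between the lines, 8 of 10 keratins were higher in KYSE140 than in TE5 cells over the 3 shared shRNAs, where 66.8% of genes passed the test and 32.0% passed as higher. The largest difference was that of KRT14, at 11.68 (SE 0.70, edgeR adjusted p = 1.1e-05). KRT16 followed at 7.44 (SE 0.65), KRT6B at 7.09 (SE 0.58) and KRT6A at 5.45 (SE 0.58). KRT5 differed by 4.34 (SE 0.22), KRT15 by 3.86 (SE 0.23) and KRT17 by 3.63 (SE 0.47). Leaving out any 1 library kept these 7 calls, with adjusted p-values of 0.00769 or less. KRT4, at 1.78 (SE 0.72, edgeR adjusted p = 0.0665), lost its call without the KYSE140 shSOX2 library (0.311), without the TE5 shSOX2 library (0.260) and without its transcripts placed by file order (0.147). KRT13 at 0.86 (SE 0.52, edgeR adjusted p = 0.189) and KRT78 at -0.36 (SE 0.47, adjusted p = 0.533) did not pass. KRT13 passed without either shTP63 library, at 1.68 (adjusted p = 7.5e-08) without that of KYSE140 and at 1.67 (2.9e-07) without that of TE5 cells. Each side of this comparison was 1 cell line, whose libraries carried different shRNAs. The p-values therefore do not measure the spread between lines or between cultures. No lane held libraries of both lines, so line and lane cannot be told apart.

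Type I and type II keratins are made in pairs, and the summed levels of the 10 members were compared per length. The simple keratins, the larger part in TE5 cells, were left out. They summed to 3474 TPM in shTP63 TE5 cells, where the 10 members summed to 1537. The values are thus not ratios of all type II to all type I keratins. The 5 type II members had 1.35 times the TPM of the 5 type I members in scramble TE5 cells and 1.37 times in scramble KYSE140 cells. In TE5 cells the ratio was 0.20 with TP63 shRNA, 0.98 with SOX2 shRNA and 0.71 with CCAT1 shRNA. With the most abundant transcript of each keratin alone, these were 0.22, 1.23 and 1.03. In KYSE140 cells it was 1.53 with TP63 shRNA and 1.00 with SOX2 shRNA. The lowest ratio went with a high KRT17 and low KRT5 and KRT6A in the same library. The KRT5 to KRT14 ratio was 8.23 in scramble, 16.2 in shTP63 and 7.25 in shSOX2 KYSE140 cells, and 475 or more in every TE5 library. For KRT6A and KRT6B against KRT16 and KRT17 the ratio was 0.59 in scramble TE5 cells, 0.05 with TP63 shRNA, 0.07 with SOX2 shRNA and 0.40 with CCAT1 shRNA. It was 0.57, 0.65 and 0.27 in scramble, shTP63 and shSOX2 KYSE140 cells. The KRT4 to KRT13 ratio was at most 0.0128 in every library.

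Among the simple keratins, 2 of the 4 tested were higher with TP63 than with SOX2 shRNA in the fit over both lines, where 4.91% of all genes passed in either direction. These were KRT7, at 0.98 (SE 0.21, edgeR adjusted p = 0.071), and KRT8, at 0.78 (SE 0.16, edgeR adjusted p = 0.0603). Calls of genes outside the set in this comparison are given for 1 setting of the edgeR fit only. In that setting 1155 genes passed, against 581 when transcripts without a gene were kept in the fit. Neither comparison with scramble called a simple keratin. KRT8 had 809 TPM in scramble, 1329 in shTP63, 615 in shSOX2 and 631 in shCCAT1 TE5 cells, and 845, 1094 and 663 in the scramble, shTP63 and shSOX2 KYSE140 cells. KRT19, the other most abundant simple keratin, lay between 926 and 1370 TPM in all 7 libraries. In the fit the set, by its median, and KRT8 thus stood on opposite sides of 0. Within TE5 cells they did not, as 7 of the 10 keratins were above 0 and KRT8 was at 0.97. Of the other stratified keratins, KRT75 was lower in the fit (-2.17, SE 0.36, edgeR adjusted p = 0.0355) with 4.66 TPM or less in any library, and none of the other 7 tested passed. KRT80 and KRT10 were the most abundant of this list by the mean over the 7 libraries, with KRT80 at 118 TPM in TE5 and 5.14 in KYSE140 scramble cells, where KRT6C was higher at 23.1. The hair keratin KRT86 was higher (1.49, SE 0.33, edgeR adjusted p = 0.0748), with 13.9 TPM in shTP63 TE5 cells and 0.119 TPM or less in KYSE140 cells, and the other 8 hair keratins tested did not pass.

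Keratin filaments are tied to desmosomes and hemidesmosomes. Of 16 anchor genes tested, 3 were lower with TP63 than with SOX2 shRNA, where 4.91% of all genes passed in either direction. DSC3, a desmosomal cadherin, was at -1.64 (SE 0.22, edgeR adjusted p = 0.0253). ITGA6, a subunit of the hemidesmosome integrin, was at -1.51 (SE 0.19, edgeR adjusted p = 0.0201). PKP1, a desmosomal plaque protein, was at -0.59 (SE 0.14, edgeR adjusted p = 0.0928). These calls and those of the regulators below are likewise given for 1 setting of the fit only. The other 13 did not pass, JUP (plakoglobin, 414 to 986 TPM) among them, and the median of the list was -0.45. No anchor gene passed in either comparison with scramble. Of 13 squamous regulators tested, TP63 itself, ZNF750 (-1.73, SE 0.26, edgeR adjusted p = 0.0319) and TFAP2A (-0.72, SE 0.17, edgeR adjusted p = 0.0809) were lower in the same comparison. Of the genes in these lists with 100 counts or more in a library of each line compared, TP63 alone was past a log2 fold change of 1 with the same sign in TE5 and in KYSE140 cells upon the same silencing. With fewer counts in KYSE140 cells, KRT86 (1.36 in TE5 and 1.55 in KYSE140) and KRT23 (1.38 and 2.63) were past 1 upon TP63 silencing and the fibroblast marker COL3A1 (2.44 and 1.52) upon SOX2 silencing. The epithelial marker CLDN4 was higher upon TP63 silencing than in scramble (0.86, SE 0.15, edgeR adjusted p = 0.0906). This call was lost when transcripts without a gene were kept in the fit, with 0 genes called.

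For the 5 keratins that had 100 counts or more in each of the 7 libraries, the genes with the most similar pattern were sought among 12247 genes, as the smallest Euclidean distance over the 5 log2 fold changes against scramble. These share scramble libraries, and the distances are a description only. KRT15 had the closest neighbours, CEL at 0.28 and SOWAHC at 0.32. KRT17 lay nearest to NFAM1 at 0.49 and TGM1, a transglutaminase of squamous epithelium, at 0.51. KRT5 lay nearest to IMPDH1 at 0.82 and SLC7A5 at 0.88, and KRT13 to INSYN1 at 0.91 and SH2D3C at 1.17. KRT6A had no close neighbour, with KIF26A at 1.88 and ENSG00000256663 at 2.05, where its own 5 values have a length of 4.10.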

How the data were processed

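RNA-Seq libraries of TE5 and KYSE140 cells (1 per line and shRNA, 7 in all) were analysed. The authors ran Kallisto on paired reads against the Ensembl transcriptome of hg19. For each transcript they deposited an estimated count, which is not scaled between libraries, and a TPM value, which is scaled by length and depth. The Kallisto version is not given in the sources used here.

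Of 196354 transcripts, 182863 were matched to GENCODE 44 mapped to hg19 and 7011 were placed in a gene because transcripts of that gene lay on both sides in file order (1 of KRT15 and 2 of KRT4 among them). A further 6480 transcripts (2.70% of counts) were left out. Estimated counts and TPM were summed per gene, without rounding for levels and rounded to whole numbers for the tests.

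Within a line, log2((a + 1)/(b + 1)) of TMM-normalized counts was taken where either library held 10 counts or more, and values past -1 or 1 were counted. No p-value was computed, and the exact 95% intervals cover counting error only. Over both lines, the quasi-likelihood test of edgeR 4.0.16 (R 4.3.3) was fitted to 6 libraries with line and shRNA as terms, filterByExpr and Benjamini-Hochberg adjustment at 0.1. For the shRNA comparisons it treats the 2 lines as replicates, and for KYSE140 against TE5 the libraries of a line with different shRNAs. The p-values measure only the spread between these libraries. Scripts were tested on simulated data. DESeq2 1.42.0, which the authors also used, other scalings, filters, pseudocounts, top transcripts, pooled near copies and leaving out each library were alternatives. An adjusted p that DESeq2 left empty (KRT4 and KRT78 in the shRNA comparisons) was kept empty.

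The 10 keratins and the other gene lists were chosen with earlier results of these data known. The text names all 10 keratins, the 2 nearest genes of each keratin that had 100 counts or more in all libraries, and, of the other lists, the genes called for an shRNA, those past -1 or 1 alike in both lines with 100 counts or more in each line, and the 2 most abundant, except for 1 result that is not reported here. Sequences are those of the hg19 genome. EPPK1 and PECAM1 were not matched and were not analysed here.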

Additional observations from a re-analysis of the deposited data

Results flagged for a closer look

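For 5 keratins a silenced library lay above scramble in one line and below it in the other with both 95% counting intervals clear of 0. KRT16, KRT78 and, upon TP63 silencing, KRT6B also had opposite signs, with an interval that held 0 in at least 1 line. With 1 library on each side, the difference between the lines was not tested. Upon TP63 silencing, KRT17 was at 0.95 in TE5 and -0.64 in KYSE140 cells on the log2 scale, a difference of -1.60 (KYSE140 minus TE5). KRT4 was at -1.52 and 0.89, a difference of 2.41 that rests on 16 to 59 counts per library. Upon SOX2 silencing, KRT6A was at -2.88 in TE5 and 0.11 in KYSE140 cells, a difference of 2.99, and the KYSE140 value turned to -0.06 on the TPM scale. KRT14 was at -1.87 and 0.99, a difference of 2.86, from 7 and 28 counts in TE5 cells. KRT4 was at -0.90 and 2.90, a difference of 3.80, and KRT13 at -0.70 and 0.34, a difference of 1.04. SOX2 was left at 34.9 TPM in TE5 and at 130 TPM in KYSE140 cells, and its part in these differences was not tested.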

How the results depend on the processing

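The fit over both lines depended on the settings. Without the replicate block (cell line, which pairs the libraries of a line), 0 genes and 0 keratins were called for TP63, for SOX2 and for TP63 against SOX2 silencing. Leaving out 1 library at a time moved the genes called for TP63 silencing between 0 and 2796 and the keratins between 0 and 5; for SOX2 silencing between 0 and 993 and between 0 and 5; and for TP63 against SOX2 silencing between 5 and 3081 and between 0 and 7. The lowest counts came without the KYSE140 scramble library (for TP63 and SOX2 silencing also without that of TE5), and the highest numbers of genes without an shTP63 library (KYSE140 for TP63 silencing and for TP63 against SOX2 silencing, TE5 for SOX2 silencing). With 1 library left out of a pair, the lone one is assumed to vary like the rest. No filter on low counts gave 1419, 485 and 2221 genes and 4, 1 and 5 keratins in the same order. DESeq2 gave 1916, 700 and 2662 genes. Keeping the transcripts without a gene, an alternative chosen after seeing the data, gave 0, 14 and 581 genes and, for TP63, 0 keratins. The most abundant transcript alone gave 2 keratins for TP63 silencing and 2 for TP63 against SOX2 silencing, and DESeq2 size factors in edgeR gave 2 for the latter. The count of keratins that differed between the lines stayed within 1.5 times of 8 in each setting.

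Within lines, a minimum of 50 counts left 1 keratin past -1 or 1 for shSOX2 against scramble in TE5 and 1 for shTP63 against shSOX2 in TE5, as low-count keratins dropped out. Scaling by the total count gave 2 for shCCAT1 against scramble. A pseudocount of 10 gave 1 for shTP63 against shSOX2 and 2 for shCCAT1 against shSOX2 in TE5, and TPM with a pseudocount of 0.1 gave 1 and 2 for these and 3 for shSOX2 against scramble in KYSE140. With pooling left aside, the sign turned under some setting for 12 of 87 values (10 in TE5, 2 in KYSE140 cells), of which 1 was past -1 or 1: KRT4 for shCCAT1 against scramble, at 2.15 from its most abundant transcript, with 36 counts or fewer in TE5 cells. Pooling with near copies gave 0.19 for KRT14 in shSOX2 against scramble and -0.72 in shCCAT1 against shSOX2, and 1.54 for KRT6B in shCCAT1 against shTP63 (all TE5). These are the values of the abundant partners KRT17 and KRT6A and say nothing about the direction of KRT14 or KRT6B.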

Other observations

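The transcripts that made up a keratin were not the same in both lines. The most abundant transcript of KRT15 held between 81.9% and 86.2% of its counts in KYSE140 libraries and between 31.5% and 50.2% in TE5 libraries. For KRT17 the share was between 98.4% and 98.5% in KYSE140 and between 82.9% and 89.4% in TE5 libraries, and a retained-intron transcript of KRT17 (ENST00000493253) had 2665 to 5323 counts in TE5 libraries. A retained-intron transcript of KRT5 (ENST00000549511) had 2228 counts in scramble, 998 in shTP63 and 2265 in shSOX2 TE5 cells, but 0.62 in shCCAT1 TE5 cells, where KRT5 as a whole had 32382 counts against 26407 with TP63 shRNA. These are estimates that Kallisto splits between overlapping transcripts, and this split was not tested.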
